A study of Fagopyrum tataricum with 9 samples.

Results

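Flavonol synthase (FLS) genes with neighbouring identifiers, FtPinG0006907000.01 and FtPinG0006907100.01, were followed through seed development of Tartary buckwheat (Fagopyrum tataricum). They are called FLS-a and FLS-b here, as working names and not as gene symbols. Both were taken from a table of the study that lists flavonoid genes called as differentially expressed between 19 and 25 days post anthesis (DPA) in these same libraries. They are 2 of the 8 genes that the study annotates as FLS, among its 47 flavonoid genes, and 2 of the 33940 genes in the files. Since the comparison of 25 DPA with 19 DPA was used to list them, its values are given for these genes as a description without a test, and the other comparisons share libraries with that choice.

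The seeds came from field-grown plants of 1 cultivar, XIQIAO NO.2, without a treatment or a mutant, and 3 replicate libraries were made at each of 13 DPA (green fruit stage), 19 DPA (discoloration stage) and 25 DPA (initial maturity stage). The labels say that 1 individual gave seeds of the 3 stages and that 3 plants served as the replicates, but not that the replicate number marks the plant. Whole seeds were used, so fewer cells of a type and less RNA per cell cannot be told apart. The 13 DPA libraries held 22002318 to 25811462 counts, the 19 DPA libraries 22337188 to 23108799 and the 25 DPA libraries 22383404 to 23689017. Their 10 leading genes accounted for 5.82 to 18.0%, 29.3 to 36.5% and 33.9 to 35.9% of these totals at 13, 19 and 25 DPA.

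Flavonol synthase is a dioxygenase that uses 2-oxoglutarate, iron and ascorbate to turn dihydroflavonols into flavonols such as kaempferol and quercetin. Quercetin is then glycosylated to rutin, the flavonol glycoside for which Tartary buckwheat is known. The carbon skeleton reaches this step through PAL (phenylalanine ammonia-lyase), C4H (cinnamate 4-hydroxylase) and 4CL (4-coumarate:CoA ligase), the enzymes of the phenylpropanoid pathway, and then through chalcone synthase (CHS), chalcone isomerase (CHI) and the hydroxylases of the flavonoid ring.

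Both FLS genes were expressed at 13 and 19 DPA and were lowest at 25 DPA, but they were not expressed at the same level and did not follow the same course. FLS-b gave most of the FLS signal at every stage. FLS-a was the less expressed gene of the pair. Its level relative to FLS-b averaged 11.8 ± 3.13%, 4.77 ± 1.41% and 3.18 ± 1.29% at 13, 19 and 25 DPA (SD, n = 3 each). These values come from FPKM, the fragments of a gene scaled by its length and by the library total.

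FLS-a (FtPinG0006907000.01, 1274 bases by the length behind its FPKM) had 1500, 1154 and 891 counts in replicates 1, 2 and 3 at 13 DPA. The 19 DPA libraries had 418, 813 and 418 counts, and the 25 DPA libraries had 40, 137 and 58. Its FPKM were 48.8, 35.1 and 31.8 in the libraries of 13 DPA, 14.4, 27.6 and 14.7 in those of 19 DPA, and 1.40, 4.55 and 1.92 in those of 25 DPA. On this scale the stages did not overlap, each later stage lay below the one before it, and replicate 2 was the highest library at both 19 and 25 DPA. The means were 38.6 ± 9.05, 18.9 ± 7.54 and 2.63 ± 1.69 FPKM at 13, 19 and 25 DPA (SD, n = 3 each).

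FLS-b (FtPinG0006907100.01, 1034 bases) had 8229, 10967 and 6009 counts in the 13 DPA libraries, 8901, 10327 and 8240 in the 19 DPA libraries, and 1368, 2380 and 1888 in the 25 DPA libraries. Its FPKM were 330, 411 and 264 in the libraries of 13 DPA, 378, 432 and 357 in those of 19 DPA, and 59.1, 97.4 and 77.1 in those of 25 DPA. Here the libraries of 13 and 19 DPA overlapped, those of 25 DPA lay below both, and replicate 2 was the highest library at every stage. The means were 335 ± 73.5, 389 ± 38.9 and 77.9 ± 19.2 FPKM at 13, 19 and 25 DPA (SD, n = 3 each). Among all 33940 genes ordered by FPKM within a library, FLS-b ranked between 201 and 523, between 145 and 223, and between 872 and 1392 at 13, 19 and 25 DPA, where rank 1 is the most abundant gene. FLS-a ranked between 3424 and 5534, between 2921 and 6867, and between 12272 and 16560 at these stages.

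FPKM divide by the library total, and at 19 and 25 DPA the 10 leading genes took up more of that total than at 13 DPA. Their share overlapped between 19 and 25 DPA, and its part in the medians below was not tested. With total counts alone, the median log2 fold change of the 23609 genes tested was -0.85 for 19 DPA over 13 DPA, -0.32 for 25 DPA over 19 DPA and -1.19 for 25 DPA over 13 DPA. Scaling by trimmed mean of M values (TMM), which sets the bulk of the genes equal between libraries, brought these medians to -0.03, -0.02 and -0.07. Changes below are given on that scale, as a log2 fold change of the later over the earlier stage with its standard error (SE), and a gene was called where the edgeR quasi-likelihood test gave a Benjamini-Hochberg adjusted p (FDR) of at most 0.05 and the log2 fold change was at least 1 in size. Both FLS genes passed the count filter.

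After TMM scaling FLS-a had 38.7, 34.1 and 22.4 CPM (counts scaled to a common library size) in the 13 DPA libraries, 18.9, 48.0 and 19.3 in the 19 DPA libraries, and 2.42, 7.36 and 3.76 in the 25 DPA libraries. The libraries of 19 and 13 DPA overlapped through replicate 2 of 19 DPA, which was the highest of the 9. FLS-b had 212, 325 and 151 CPM in the 13 DPA libraries, 403, 610.0 and 380.3 in the 19 DPA libraries, and 82.8, 128 and 122 in the 25 DPA libraries. Its 3 libraries at 19 DPA lay above those of 13 DPA, and those at 25 DPA lay below both earlier stages.

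Between 19 and 13 DPA neither FLS gene was called, where 8.57% of all genes tested were. FLS-a averaged 28.8 ± 16.7 CPM at 19 DPA and 31.7 ± 8.41 CPM at 13 DPA (SD, n = 3 each), a log2 fold change of -0.14 (SE 0.46, edgeR FDR 0.880). FLS-b averaged 465 ± 126.5 CPM at 19 DPA and 229 ± 88.0 CPM at 13 DPA, a log2 fold change of 1.02 (SE 0.35, edgeR FDR 0.101). The value of FLS-b was near the limit on both criteria. It passed with the replicate number as a block in edgeR (1.04, SE 0.28, FDR 0.0482), with DESeq2 (1.02, FDR 0.0221) and in edgeR without replicate 2 of 13 DPA (1.36, FDR 0.0323). FLS-a was called lower at 19 DPA only by limma on log2(FPKM + 1), a scale without TMM factors, at -1.03 (FDR 0.0326).

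Between 25 and 13 DPA both genes were lower at 25 DPA and both were called, where 42.2% of all genes tested were called and 25.6% were called lower. The same 25 DPA libraries served to list the pair, which favours a lower value here, so these tests are not independent of that choice. FLS-a averaged 4.51 ± 2.56 CPM at 25 DPA and 31.7 ± 8.41 CPM at 13 DPA, 7.0-fold lower, with a log2 fold change of -2.81 (SE 0.51, edgeR FDR 0.00165). FLS-b averaged 111 ± 24.6 CPM at 25 DPA and 229 ± 88.0 CPM at 13 DPA, 2.07-fold lower, with a log2 fold change of -1.05 (SE 0.35, edgeR FDR 0.0305). FLS-a kept its call under all 18 alternatives run, with log2 fold changes of -3.36 to -2.50 when single libraries were left out. On the scales without TMM factors the values of 25 over 13 DPA reached -3.97 for FLS-a and -2.11 for FLS-b. On the TMM scale the call of FLS-b was held by a narrow margin. With the replicate number as a block its log2 fold change was -0.998 (FDR 0.0179), short of the fold limit and not called. Without a block, its edgeR FDR was 0.0589 without replicate 1 of 13 DPA, 0.0958 without replicate 2 of 13 DPA, and 0.108, 0.0540 and 0.0605 without replicates 1, 2 and 3 of 25 DPA, at log2 fold changes of -1.10, -0.71, -0.87, -1.16 and -1.12.

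The comparison of 25 with 19 DPA was the one used to list the genes. The log2 fold change of 25 DPA over 19 DPA was -2.66 (SE 0.50) for FLS-a, 6.33-fold lower, and -2.07 (SE 0.36) for FLS-b, 4.18-fold lower. Without single libraries these values ranged from -3.22 to -2.07 for FLS-a and from -2.23 to -1.82 for FLS-b. In this comparison 28.8% of all genes tested were called and 19.5% were called lower, and nothing is read from the calls of these genes.

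The ratio of the genes within a library does not depend on the library total or on a scaling factor, and it was not used to list them. FLS-a stood at 14.8% (95% interval 13.99 to 15.6), 8.54% (8.03 to 9.08) and 12.03% (11.2 to 12.9) of the FPKM of FLS-b in replicates 1, 2 and 3 of 13 DPA. It stood at 3.81% (3.45 to 4.20), 6.39% (5.94 to 6.86) and 4.12% (3.72 to 4.54) at 19 DPA. At 25 DPA the ratio was 2.37% (1.69 to 3.25), 4.67% (3.90 to 5.55) and 2.49% (1.89 to 3.24). The intervals are Clopper-Pearson intervals on the counts of the gene pair and cover counting error only, since reads without molecular identifiers are not independent molecules. The 3 libraries of 13 DPA lay above all 6 later ones, and the libraries of 25 and 19 DPA overlapped. Replicate 2 had the lowest ratio at 13 DPA and the highest at 19 and at 25 DPA.

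**Figure D1:**
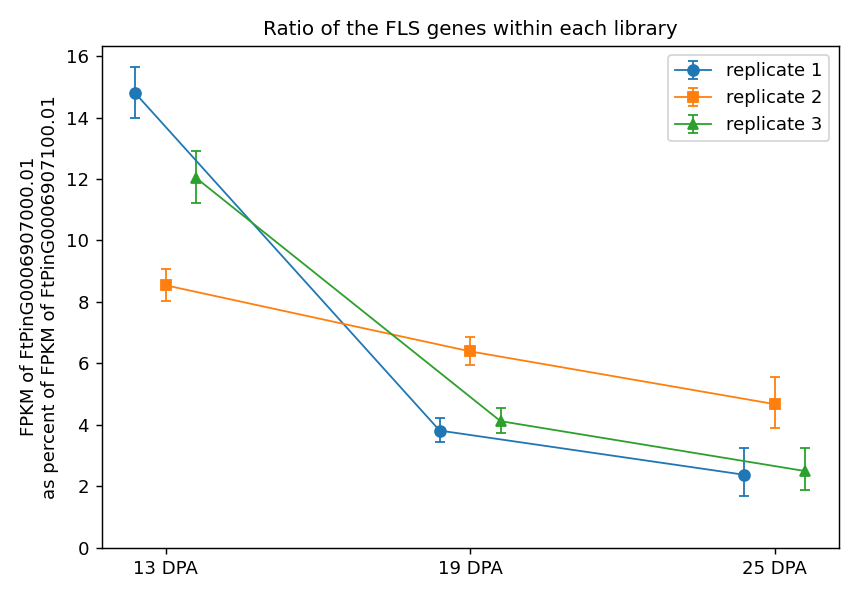
FPKM of FLS-a as a percent of the FPKM of FLS-b in each library (y axis) at 13, 19 and 25 DPA (x axis), with the 95% Clopper-Pearson interval of the counts as error bar. Lines join libraries with the same replicate number. Its range was 8.54 to 14.8%, 3.81 to 6.39% and 2.37 to 4.67% in the order of the stages.

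The stages differed in this ratio beyond the spread of their libraries (F = 14.1 on the log2 ratio, p = 0.0107 in an exact permutation test over 9 libraries, smallest possible p 0.00357). This permutation moved the 9 libraries freely and left out any pairing by replicate number. The F value was 8.82 without replicate 3 of 13 DPA and 24.5 without replicate 2 of 25 DPA, the lowest and highest of the 9 fits with a library left out, with exact p-values between 0.00357 and 0.025. The mean log2 ratio was -4.43 ± 0.40 at 19 DPA and -3.12 ± 0.40 at 13 DPA, a difference of -1.31 (SE 0.33, two-sided exact permutation p = 0.1, 0.15 after Benjamini-Hochberg adjustment over 3 pairs). It was -5.05 ± 0.54 at 25 DPA, which differed from 13 DPA by -1.93 (SE 0.39, exact permutation p = 0.1, adjusted 0.15). For each of these pairs 0.1 is the smallest p that 3 against 3 libraries allow, so neither can pass 0.05 alone. The ratios of 25 and 19 DPA differed by -0.62 (SE 0.39, exact permutation p = 0.3, adjusted 0.3), and their libraries overlapped. Within replicate numbers the differences of 25 from 19 DPA were -0.68, -0.45 and -0.72, with an SE of 0.085 (exact sign-flip p = 0.25, the smallest that 3 pairs allow). In all 3 pairs of stages the later library had the lower ratio in 3 of 3 replicate numbers. Put the other way, FLS-b exceeded FLS-a 8.93 ± 2.53-fold, 22.1 ± 5.63-fold and 34.6 ± 11.4-fold at 13, 19 and 25 DPA (SD, n = 3 each). How reads that match both genes were counted, and whether strand was used, is not given in the sources used here, so part of the low signal of FLS-a could not be assigned with certainty to either gene.

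Set beside the other FLS genes, FLS-b held most of the expression. The summed FPKM of the 8 FLS genes averaged 384 ± 80.6, 418 ± 49.8 and 85.2 ± 21.9 at 13, 19 and 25 DPA (SD, n = 3 each). FLS-b made up 87.3 ± 2.06%, 93.2 ± 1.74% and 91.5 ± 1.06% of that sum at the 3 stages. FLS-a made up 10.3 ± 2.50%, 4.43 ± 1.23% and 2.90 ± 1.14%. The other 6 genes together made up 2.45 ± 0.897%, 2.36 ± 0.899% and 5.56 ± 0.0810%, so that at 25 DPA they exceeded FLS-a in the sum.

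Those 6 genes did not all move with the pair. FtPinG0008448800.01 had 27, 31 and 17 counts in the 13 DPA libraries, 115, 168 and 33 in those of 19 DPA, and 46, 107 and 40 in those of 25 DPA. It was called higher at 19 DPA than at 13 DPA (log2 fold change 3.02, edgeR FDR 0.0264) and higher at 25 DPA than at 13 DPA (2.45, FDR 0.0117). FtPinG0001318800.01 had 189, 366 and 81 counts in the 13 DPA libraries, 160, 153 and 60 in those of 19 DPA, and 6, 20 and 10 in those of 25 DPA. It followed the direction of the pair at the end of the course, with log2 fold changes of -3.17 (edgeR FDR 0.00914) for 25 over 19 DPA and -3.07 (FDR 0.00618) for 25 over 13 DPA. FtPinG0001742000.01 stayed below 2 FPKM on average at every stage and was highest at 25 DPA, with 17, 12 and 33 counts there, against 2, 0 and 2 in the 19 DPA libraries and 3, 7 and 2 in the 13 DPA libraries. Its log2 fold change was 3.47 for 25 over 13 DPA (edgeR FDR 0.00460). FtPinG0004192700.01 had 1 to 20 counts per library and was not called in any comparison, and FtPinG0001742500.01 and FtPinG0001317600.01 had no count in any library.

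**Figure D2:**
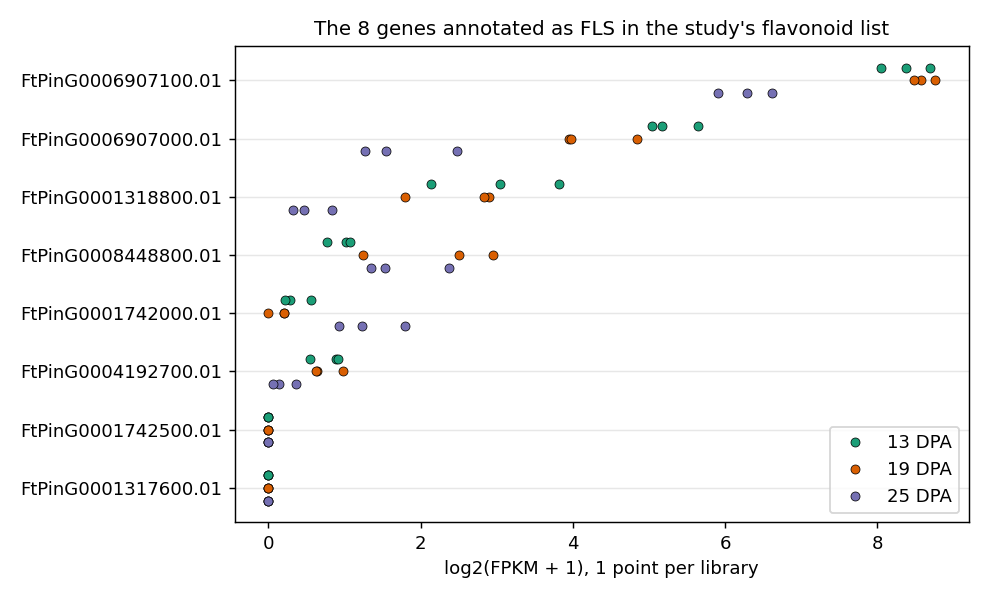
Expression of the 8 FLS genes as log2(FPKM + 1) (x axis), with 1 point per library and 1 row per gene, coloured by stage. FLS-b (FtPinG0006907100.01) is the highest row at every stage, FLS-a (FtPinG0006907000.01) is second at 13 and 19 DPA, and 2 genes have no count in any library.

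Of the 6 FLS genes that passed the count filter, 1 was called between 19 and 13 DPA (higher, median log2 fold change of the 6 genes 0.38), 4 between 25 and 19 DPA (1 higher and 3 lower, median -1.96) and 5 between 25 and 13 DPA (2 higher and 3 lower, median -1.12). Over all genes tested the shares called were 8.57%, 28.8% and 42.2% and the medians -0.03, -0.02 and -0.07. Without FLS-a and FLS-b, 4 tested genes remain, with 1 called higher between 19 and 13 DPA (median 0.38), 1 higher and 1 lower between 25 and 19 DPA (median -1.22) and 2 higher and 1 lower between 25 and 13 DPA (median 0.62), so that the sign of the last median turned without the pair. With total counts 1 of the 6 FLS genes was called higher and 4 were called lower between 25 and 13 DPA. The single call between 19 and 13 DPA was lost (0 genes called) without replicate 1 or 3 of 13 DPA or replicate 1 or 2 of 19 DPA, and with only the 6 libraries of the pair. The FLS list was compiled by the study on these samples and is not independent evidence of a direction.

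Along the pathway that supplies flavonol synthase, 6 of the 7 named PAL, C4H, 4CL, CHS and CHI genes were also called lower at 25 DPA than at 13 DPA, where 25.6% of all genes tested were called lower. PAL opens the phenylpropanoid pathway, and its gene FtPinG0003900700.01 had a log2 fold change of -1.90 for 25 over 13 DPA (called), while FtPinG0008236900.01, also annotated as PAL, had 0.77 and was not called. C4H (FtPinG0001575100.01) and 4CL (FtPinG0005072700.01), which hydroxylate cinnamate and activate coumarate, fell by 2.03 and 2.76 on the log2 scale at 25 DPA against 13 DPA. CHS joins the activated acid with malonyl units, and its genes FtPinG0008131000.01 and FtPinG0008806400.01 had log2 fold changes of -2.03 and -1.42 in the same comparison (both called, the second at an edgeR FDR of 0.0495). CHI (FtPinG0002790600.01), which closes the flavanone ring, had -2.03 and was called. PAL, CHS and CHI genes were named by a mean of at least 10 FPKM in a stage. CHI reached it only at 13 and 19 DPA (65.5 and 50.2 FPKM, against 7.61 at 25 DPA). That limit favours a lower value at 25 DPA, so the CHI call is a description. All of these genes except the PAL genes were also called lower at 25 DPA than at 19 DPA, where 19.5% of all genes tested were, at -2.61 for C4H, -2.74 for 4CL, -3.21 and -2.05 for the CHS genes and -2.48 for CHI. Like the FLS pair, CHS FtPinG0008131000.01 and CHI were listed by the study because they were called in that comparison. Nothing is read from their calls there, and their values for 25 over 13 DPA share the 25 DPA libraries with that choice. None of these PAL, C4H, 4CL, CHS and CHI genes was called between 19 and 13 DPA, where 8.57% of all genes tested were. PAL FtPinG0008236900.01 came near, with a log2 fold change of 1.38 (SE 0.41, edgeR FDR 0.0665). Its 19 DPA libraries all lay above those of 13 DPA. The study lists this gene as differentially expressed in that comparison, higher at 19 DPA, so its value there is a description.

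The hydroxylases that set the pattern of the flavonoid B ring were mixed. Flavonoid 3'-hydroxylase (F3'H), which makes the quercetin pattern, had 3 genes with a mean of at least 10 FPKM in a stage. FtPinG0003629700.01 reached that mean only at 25 DPA (11.7 FPKM) and FtPinG0001470600.01 only at 19 DPA (11.3 FPKM). The limit thus admitted each of them through its highest stage, and their directions are a description. FtPinG0003629700.01 was called higher in each comparison, with log2 fold changes of 1.02 for 19 over 13 DPA, 1.19 for 25 over 19 DPA and 2.22 for 25 over 13 DPA. FtPinG0002353900.01 was called lower at 25 DPA than at 19 DPA (-1.0003), and FtPinG0001470600.01 was not called in any comparison. Flavonoid 3',5'-hydroxylase (F3'5'H) FtPinG0006940000.01 was called lower at 25 DPA than at 19 DPA (-1.58). It reached a mean of 10 FPKM only at 13 and 19 DPA (14.7 and 14.2 FPKM, against 4.21 at 25 DPA). The limit favours this direction, which is a description. The UFGT gene FtPinG0006606900.01, a flavonoid glucosyltransferase that acts after flavonol synthase, was not called in any comparison, with log2 fold changes of 0.26, -0.15 and 0.11.

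**Figure D3:**
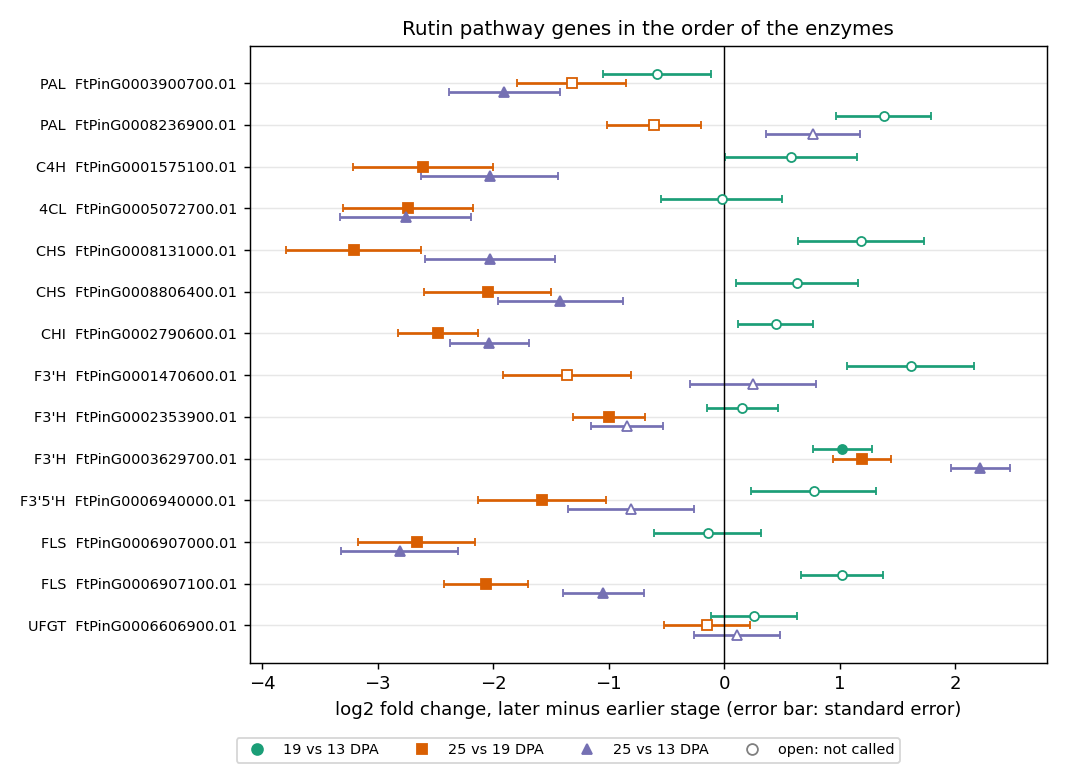
Log2 fold change (x axis, later minus earlier stage, error bar SE) of named pathway genes and the FLS genes, in the order of the enzymes from PAL to UFGT. Circles are 19 vs 13 DPA, squares 25 vs 19 DPA and triangles 25 vs 13 DPA, and open symbols are not called. FLS-a (-2.81) and FLS-b (-1.05) lie with C4H, 4CL, CHS and CHI below 0 for 25 vs 13 DPA. The squares of the FLS genes, of CHS FtPinG0008131000.01 and of CHI describe the comparison that was used to list these genes.

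Of the 47 flavonoid genes of the study, 31 passed the count filter. Between 19 and 13 DPA 8 were called (7 higher and 1 lower, median 0.63), between 25 and 19 DPA 20 (8 higher and 12 lower, median -1.0003) and between 25 and 13 DPA 22 (10 higher and 12 lower, median -0.81), beside the shares of all genes given above. The first count was 10 without replicate 2 of 13 DPA and 1 to 5 without any other single library, with 1 gene called without replicate 1 of 13 DPA. The balance of directions depended on the scale. With total counts 3 were called higher and 5 lower between 19 and 13 DPA, 5 higher and 17 lower between 25 and 19 DPA, and 8 higher and 17 lower between 25 and 13 DPA, and limma on log2(FPKM + 1) called 1 higher and 5 lower between 19 and 13 DPA. Like the FLS genes, these were listed by the study on these samples.

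Compared within libraries, FLS-a kept close to 4CL and FLS-b did not. FLS-a had 85.9 to 97.3%, 71.4 to 111% and 75.9 to 108% of the FPKM of 4CL FtPinG0005072700.01 at 13, 19 and 25 DPA, and the stages overlapped. FLS-b had 826 ± 285%, 1945 ± 716% and 3175 ± 1334% of the FPKM of 4CL at 13, 19 and 25 DPA (SD, n = 3 each). Relative to CHI FtPinG0002790600.01, FLS-a had 58.9 ± 5.86%, 38.2 ± 12.1% and 32.3 ± 10.8% and FLS-b 516 ± 92.8%, 805 ± 180% and 1035 ± 96.3%. Relative to CHI, the 25 DPA libraries lay below those of 13 DPA for FLS-a and above them for FLS-b. FLS-a had 25.8 ± 7.10%, 14.2 ± 3.64% and 15.2 ± 3.12% of the FPKM of C4H. FLS-b had 223 ± 50.1%, 302 ± 64.9% and 547 ± 262% of it. For CHS FtPinG0008131000.01 the values were 20.4 ± 5.95%, 7.86 ± 3.50% and 11.1 ± 0.579% for FLS-a. They were 175 ± 39.9%, 163.5 ± 61.9% and 386.5 ± 142.8% for FLS-b. All these ratios carry no test, since 4CL was singled out by its likeness to FLS-a.

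The genes most like each FLS gene were different ones. Likeness was the Pearson correlation of log2 CPM over the 9 libraries among 10392 other genes with a mean of at least 10 FPKM. It is a description of libraries that share stage and composition and carries no test. For FLS-a the closest gene was 4CL FtPinG0005072700.01 (r = 0.99), followed by FtPinG0001461500.01 and FtPinG0008802700.01 (0.99 each), FtPinG0002156400.01 (0.98) and FtPinG0004510400.01 (0.98), which the study names FtSEP1L. 4CL was also the closest of these genes on log2(FPKM + 1). FLS-b came only at rank 1493 (r = 0.81). For FLS-b the closest genes were FtPinG0004259300.01 (r = 0.99), FtPinG0007000200.01 (0.98), FtPinG0007379300.01, FtPinG0003898400.01 and FtPinG0000448000.01 (0.97 each). The study lists FtPinG0003898400.01 under the Aux/IAA family of auxin signalling. It gives the same label to genes that it matches to auxin response factors, so the label does not settle which kind this gene is. No annotation of the other closest genes of FLS-b was used here. CHS FtPinG0008131000.01 was at rank 25 for FLS-b (r = 0.95), and FLS-a at rank 533.

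A gene of each list, chosen after its values were seen, serves as an example. FtPinG0004510400.01, from the list of FLS-a, averaged 82.3 ± 21.3, 78.0 ± 20.8 and 17.0 ± 5.64 CPM after TMM scaling at 13, 19 and 25 DPA (SD, n = 3 each), with a log2 fold change of -0.08 for 19 over 13 DPA (edgeR FDR 0.903, not called). FtPinG0004259300.01, from the list of FLS-b, averaged 20.4 ± 3.95, 36.0 ± 5.69 and 13.6 ± 2.28 CPM, with a log2 fold change of 0.82 for 19 over 13 DPA (edgeR FDR 0.0410, below the fold limit and not called). On the FPKM scale, without TMM factors, FtPinG0004510400.01 averaged 64.5 ± 10.2 at 19 DPA and 120 ± 16.1 at 13 DPA, and FtPinG0004259300.01 averaged 14.9 ± 0.881 at 19 DPA and 14.8 ± 1.14 at 13 DPA.

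Other genes with nearby identifiers were looked up to see how the surroundings of the pair were expressed. Within 10 identifiers on each side the files hold 5 other annotated genes, of which 4 passed the count filter and 1 had no count in any library. None of the 4 was called between 19 and 13 DPA, 2 were called lower between 25 and 19 DPA and 3 were called lower between 25 and 13 DPA. Over all genes tested 8.57% were called in the first of these comparisons, and 19.5% and 25.6% were called lower in the others. Only FtPinG0006906200.01 reached a mean of 10 FPKM in a stage, and only at 13 DPA, with 35.9 ± 22.1, 8.41 ± 1.36 and 2.07 ± 0.0433 FPKM at 13, 19 and 25 DPA. The gene fell by 3.09 on the log2 scale at 25 DPA against 13 DPA (edgeR FDR 0.000881), a direction that this limit favours. Positions in the genome and sequences of these genes were not analysed here, so neighbours means neighbours by identifier.

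**Figure D4:**
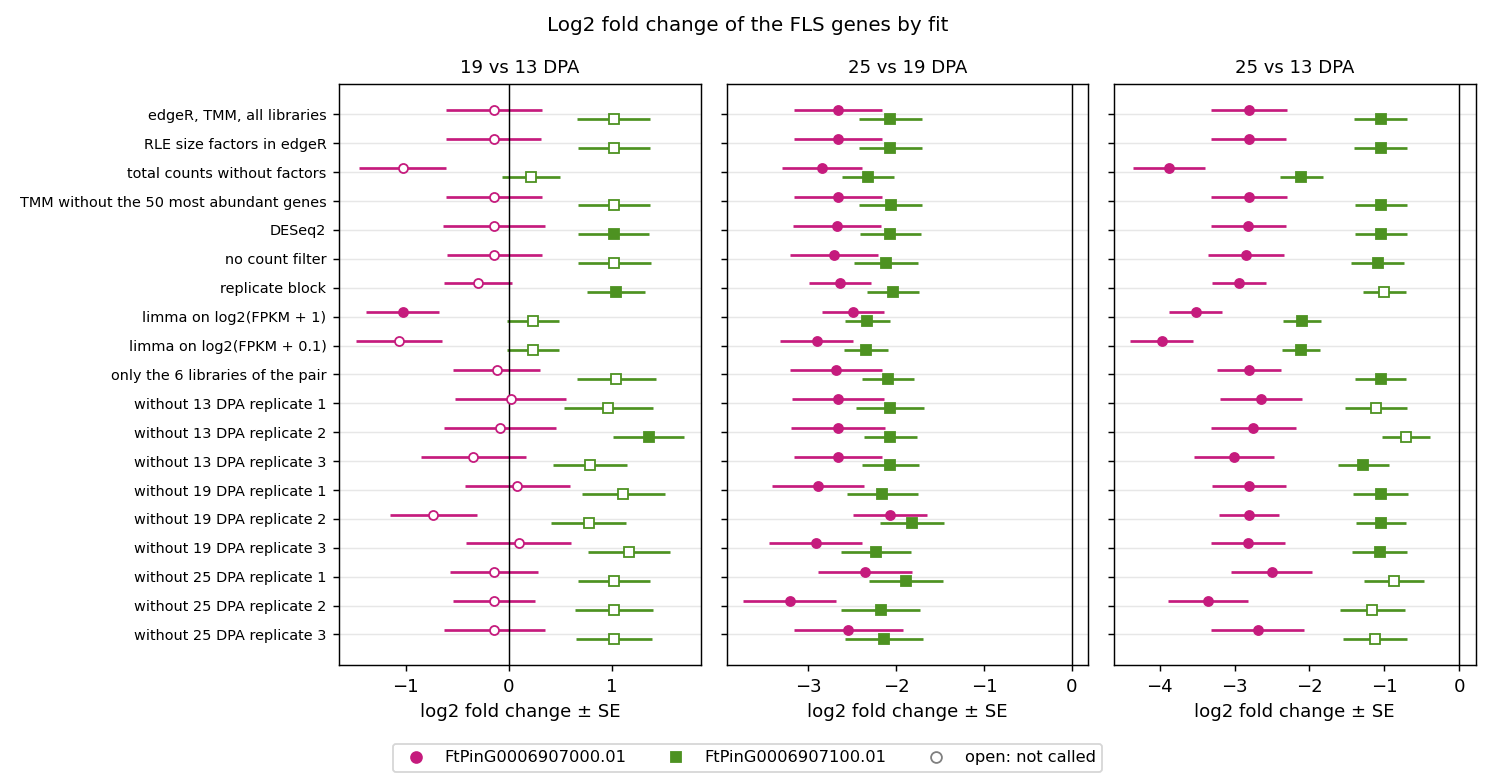
Log2 fold change (x axis, error bar SE) of FLS-a (circles) and FLS-b (squares) in each fit, for 19 vs 13, 25 vs 19 and 25 vs 13 DPA (panels), with open symbols where the gene was not called. Every fit put both genes below 0 in the panels with 25 DPA. Between 19 and 13 DPA the value of FLS-b ran from 0.21 with total counts to 1.36 without replicate 2 of 13 DPA.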

How the data were processed

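RNA-seq was performed on seeds at 13, 19 and 25 DPA with 3 libraries per stage. According to the submitters' processing notes, Bowtie2 2.0.6 and TopHat2 2.0.12 were used. The counts per gene were deposited by the authors, with a genome annotation extended by a Cufflinks assembly. The FPKM were deposited by the authors and equal the count divided by gene length and library total. How reads were counted, whether by strand and with what rule for multiple matches, is not given in the sources used here.

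Counts were fitted in R 4.3.3 with edgeR 4.0.16 (TMM, filterByExpr, robust quasi-likelihood, all 9 libraries, no block), and p-values were adjusted over the 23609 genes tested, with 10331 left out by the filter. The study's methods state the fold limit incompletely, and a log2 fold change of 1 was assumed. The p-values measure the spread between these libraries. The common biological coefficient of variation was 0.362. The ratio of the FLS genes was compared by exact permutation. Figures used matplotlib 3.10.9, pandas 2.3.3 and numpy 2.4.6 in Python 3.11.15.

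Alternatives were DESeq2 1.42.0, limma 3.58.1 on log2 values of FPKM plus 1 or plus 0.1, RLE factors, total counts, TMM without the 50 most abundant genes, no filter, the 6 libraries of a pair, a replicate block and each library left out. Deviations from the stage means correlated across genes at 0.353 to 0.590 between 19 and 13 DPA libraries of the same number. Between different numbers the values were -0.478 to -0.111. Deviations within a stage cancel out, so positive same-number values push the others down, and the negative range is not separate evidence. Same-number values were 0.0258 to 0.197 for 25 and 19 DPA and -0.0279 to 0.133 for 25 and 13 DPA. The numbers of 13 and 19 DPA may thus pair. The edgeR fit without a block and the permutation over 9 libraries did not use such a pairing, and the replicate block was run only as an alternative.

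The genes and lists were chosen with earlier results of these data known. Named were the FLS genes, PAL, CHS, CHI, F3'H and F3'5'H genes of the study's flavonoid list with a mean of at least 10 FPKM in a stage, the C4H, 4CL and UFGT genes of its RT-qPCR set, the 5 genes most like each FLS gene, nearby identifiers with a mean of at least 10 FPKM in a stage, and 3 seed storage genes.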

Additional observations from a re-analysis of the deposited data

How the results depend on the processing

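Of 264 values recomputed for 18 results, 233 counted as unchanged, and 0 reversed a called value. Tested values had to stay on their side of the threshold, and counts of genes within 1.5 times, whatever the directions. So 7 higher and 1 lower flavonoid genes for 19 over 13 DPA counted as unchanged at 3 higher and 5 lower with total counts. Fold changes of 25 over 19 DPA and pairwise differences of the log2 ratio had to keep their sign and move by less than the pooled SD of the libraries. FLS-a kept its call for 25 over 13 DPA in 18 of 18 alternatives, and FLS-b in 12 of 18. With the replicate block the log2 fold change of FLS-b was -0.998 for 25 over 13 DPA, just short of the fold limit (FDR 0.0179, not called), and 1.04 for 19 over 13 DPA (called). DESeq2 gave 1.02 for the same step of FLS-b (called), and limma on log2(FPKM + 1) gave -1.03 for FLS-a (called). The FDR of FLS-b for 19 over 13 DPA ranged from 0.0221 to 0.514 over its alternatives. With each library left out in turn, FLS-b ranged from 0.77 to 1.36 for 19 over 13 DPA and from -1.28 to -0.71 for 25 over 13 DPA, and FLS-a from -0.73 to 0.10 for 19 over 13 DPA, an uncalled value that changed sign without replicate 1 of 13 DPA (0.02), replicate 1 of 19 DPA (0.08) and replicate 3 of 19 DPA (0.10). Between 19 and 13 DPA the number of FLS genes called was 1, against 2 with DESeq2, 2 with the replicate block, 2 with limma on log2(FPKM + 1), 0 with only the 6 libraries of the pair and 0 to 2 with a library left out. The number of flavonoid genes called there was 8, against 3 with the 6 libraries of the pair and 1 to 10 with a library left out. Between 25 and 13 DPA 5 FLS genes were called, against 3 with limma on log2(FPKM + 1). The replicate block left the mean differences of the log2 ratio as they were (exact sign-flip p = 0.25 for each pair of stages, the smallest that 3 pairs allow), with an SE of 0.46 for 19 over 13 DPA, 0.085 for 25 over 19 DPA and 0.54 for 25 over 13 DPA. Of the 5 genes most like each FLS gene, 2 were shared with the list made on log2(FPKM + 1) for FLS-a and 0 for FLS-b. For these differences the cause was not tested. The 40 to 137 counts of FLS-a at 25 DPA limit the precision of its values there.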

Other observations

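The study names 3 seed storage genes as upregulated from 19 to 25 DPA in these same libraries. Their calls at 25 DPA are therefore a description and not independent evidence, and its other storage protein genes were not followed here. Of the 3 genes, 2 were called higher at 25 DPA than at 13 DPA, where 16.6% of all genes tested were. Glutelin FtPinG0000417000.01 had 16.4 ± 11.9, 2.82 ± 0.207 and 22.5 ± 3.93 FPKM at 13, 19 and 25 DPA (SD, n = 3 each) and was called higher at 25 DPA than at 19 DPA (log2 fold change 3.27) and than at 13 DPA (1.45). Glutelin FtPinG0008579200.01 had 107 ± 51.7, 39.3 ± 3.19 and 64.1 ± 7.27 FPKM and was not called in any comparison, and globulin FtPinG0004288700.01 had 0.0478 ± 0.0564, 0.351 ± 0.428 and 1.80 ± 1.04 FPKM and was called higher at 25 DPA than at 13 DPA (6.25). Their part in the values of the FLS genes was not tested.

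Among the 12 UFGT genes that passed the count filter, 5 were called for 19 over 13 DPA, of which 4 were higher, 8 for 25 over 19 DPA, of which 5 were higher, and 9 for 25 over 13 DPA, of which 6 were higher. Over all genes tested 8.57%, 28.8% and 42.2% were called, and 4.11%, 9.27% and 16.6% were called higher. The median log2 fold changes of the UFGT genes were 0.55, 0.28 and 1.20, beside -0.03, -0.02 and -0.07 over all genes tested.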
